A study of Mus musculus with 15 samples.

Results

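The genes described here are 29 mouse genes of cholesterol synthesis, uptake and export, named as a list of symbols and found in the deposited tables through their Ensembl identifiers. All 29 had a row among the 48795 genes of the tables, and all 29 were among the 14991 genes with enough reads to be tested. They fall into 18 synthesis enzymes, 5 sterol-sensing genes and 6 genes of uptake, transport, storage and export, the last called uptake and export genes here. The question put to them was whether the synthesis genes and the uptake and export genes differed between inflamed and control ears in the same way, and what the peptide group looked like.

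The tissue was ear of female mice aged 5 weeks, in a model in which phorbol 12-myristate 13-acetate (PMA), an irritant that activates protein kinase C, inflames the skin. The PMA_1002 group (n = 6 libraries) is named for PMA and for the innate defense regulator peptide that the series title gives by number. The PMA_ethanol group (n = 4) is named for PMA and ethanol, and the Control group (n = 5) is labelled only as control. The sources used here give no strain, genotype, dose, time or treatment of the Control ears. The label of the PMA_1002 group names no ethanol, so peptide and vehicle cannot be told apart between the PMA groups. Nothing in the labels ties each library to its own animal, so the p-values measure the spread among these libraries, which may be in part technical. Between libraries, reads in genes ran from 2656680 to 28585995 per library. Levels are in counts-per-million (CPM) of TMM-scaled libraries, and a gene was called where edgeR's quasi-likelihood test gave a Benjamini-Hochberg adjusted p under 0.05 over all genes tested. A log2 fold change has the first-named group on top.

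The ear label was checked against marker genes. All 7 markers of interfollicular keratinocytes had reads in every group, and their summed level was 26909 to 30131 CPM in PMA_1002 libraries, 13918 to 18016 CPM in PMA_ethanol libraries and 23911 to 30833 CPM in Control libraries. The 9 neutrophil markers summed to 253 to 526 CPM in PMA_1002 libraries, 1203 to 2578 CPM in PMA_ethanol libraries and 21.9 to 34.3 CPM in Control libraries, where 1 of the 9 had no read. The 10 macrophage markers summed to 895 to 1141 CPM in PMA_1002 libraries, 1158 to 1561 CPM in PMA_ethanol libraries and 673 to 761 CPM in Control libraries. The 8 sebocyte markers summed to 1803 to 2718, 1434 to 2638 and 2369 to 2638 CPM in the PMA_1002, PMA_ethanol and Control libraries, and the ranges overlapped. The summed keratinocyte, neutrophil and macrophage levels thus moved with the groups compared below, and their part in the results was not tested. Single macrophage markers went both ways. In PMA_ethanol over Control 4 of the 10 were called higher and 3 lower, where 32.5% and 35.9% of all genes were. In PMA_1002 over PMA_ethanol 2 were higher and 4 lower, against 17% and 18% of all genes. Single sebocyte markers also split, with 2 of the 8 higher and 2 lower in each of these comparisons. Their log2 fold changes ran from -2.05 to 1.01 in PMA_ethanol over Control, which the summed level does not show. In bulk tissue, fewer cells of a type and less RNA per cell cannot be told apart. Hair follicle markers varied within every group, from 7.96 to 1203 CPM in PMA_1002 libraries, 15.8 to 3767 CPM in PMA_ethanol libraries and 49.4 to 3685 CPM in Control libraries. For that reason counts are also given for the 9 libraries of low hair follicle level (4 PMA_1002, 2 PMA_ethanol and 3 Control).

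Cells build cholesterol from acetyl-CoA through mevalonate, farnesyl diphosphate, squalene and lanosterol, and they also take it up in lipoproteins, move it between membranes, store it as esters and export it to lipoprotein particles outside. When sterol in the endoplasmic reticulum is low, the escort protein SCAP carries the transcription factors SREBP1 and SREBP2, products of Srebf1 and Srebf2, to the Golgi for release, while INSIG proteins hold SCAP back when sterol is plentiful. Oxysterols activate liver X receptors, which raise transcription of the exporters Abca1 and Abcg1 and of Mylip. In skin, cholesterol made by keratinocytes is one of the lipids of the outer barrier, and macrophages take up and export cholesterol as they clear cells.

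The promoters of 5 genes on which the results below turn are shown first, because synthesis and export genes are known for different promoter elements. They come from RefSeq on build GRCm38.p6, run from 250 bases before to 50 bases after the annotated start, and are written 5′ to 3′ on the gene's strand. Capitals mark the sterol regulatory element core TCACNCCAC, the NF-Y box CCAAT, which reads as ATTGG from the other strand, and the E-box CACGTG, searched on both strands.
Hmgcs1, chr13:119690101-119690400, plus strand: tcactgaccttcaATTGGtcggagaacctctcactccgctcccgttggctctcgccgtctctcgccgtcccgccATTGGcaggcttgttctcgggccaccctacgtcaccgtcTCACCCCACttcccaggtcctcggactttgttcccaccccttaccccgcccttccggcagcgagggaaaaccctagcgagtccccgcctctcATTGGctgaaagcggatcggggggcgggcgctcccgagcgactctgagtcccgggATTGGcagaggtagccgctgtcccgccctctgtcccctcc
Mvk, chr5:114444019-114444318, plus strand: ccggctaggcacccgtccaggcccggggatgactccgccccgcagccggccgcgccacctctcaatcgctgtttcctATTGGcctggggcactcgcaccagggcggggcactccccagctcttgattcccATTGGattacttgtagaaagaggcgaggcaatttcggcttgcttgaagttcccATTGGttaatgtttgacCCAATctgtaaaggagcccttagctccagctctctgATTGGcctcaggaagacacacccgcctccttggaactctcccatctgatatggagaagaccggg
Insig1, chr5:28071162-28071461, plus strand: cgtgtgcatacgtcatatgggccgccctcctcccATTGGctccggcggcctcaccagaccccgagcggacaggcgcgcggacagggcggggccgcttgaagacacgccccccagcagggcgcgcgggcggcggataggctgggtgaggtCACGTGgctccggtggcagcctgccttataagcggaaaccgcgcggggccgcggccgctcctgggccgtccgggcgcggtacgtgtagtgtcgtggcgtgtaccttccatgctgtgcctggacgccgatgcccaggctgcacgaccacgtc
Mylip, chr13:45389492-45389791, plus strand: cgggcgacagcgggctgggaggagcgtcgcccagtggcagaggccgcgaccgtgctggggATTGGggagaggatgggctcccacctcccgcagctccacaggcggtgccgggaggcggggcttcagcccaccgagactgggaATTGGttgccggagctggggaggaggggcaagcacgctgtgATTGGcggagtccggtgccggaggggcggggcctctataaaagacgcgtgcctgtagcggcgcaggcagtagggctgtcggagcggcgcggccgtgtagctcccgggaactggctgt
Abca1, chr4:53159846-53160145, minus strand: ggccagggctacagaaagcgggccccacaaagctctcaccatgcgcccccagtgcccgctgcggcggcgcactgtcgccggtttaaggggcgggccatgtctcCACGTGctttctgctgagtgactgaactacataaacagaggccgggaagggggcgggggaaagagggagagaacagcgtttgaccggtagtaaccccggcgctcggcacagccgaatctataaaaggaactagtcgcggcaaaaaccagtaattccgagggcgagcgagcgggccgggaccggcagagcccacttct
The windows lie around the starts of the synthesis genes Hmgcs1 and Mvk, the sensing gene Insig1, and Mylip and Abca1 of uptake and export. Among these 5, the sterol regulatory element core occurred once, as TCACCCCAC in Hmgcs1. Hmgcs1 held 4 NF-Y boxes, Mvk 5, Mylip 3, Insig1 1 and Abca1 0. A window was given for 23 of the 29 genes. An NF-Y box stood in the windows of 20 of these 23 genes (86.96%), against 42.09% of 11328 tested genes with a window. For the 15 synthesis genes with a window the count was 14 (93.33%), for the 5 sensing genes 4 (80.0%) and for 3 uptake and export genes 2 (66.67%). With so few windows no difference between the classes is read, and elements of liver X receptors were not searched. The GC box GGGCGG stood in 22 of the 23 (95.65%) against 65.18%, the E-box in 6 (26.09%) against 11.24%, and the sterol regulatory element core in 1 (4.348%) against 1.465%. None of the 4 motifs contains another, and a match describes the letters of the window and is not evidence of binding.

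Between PMA_ethanol and Control ears, 51.7% of the 29 genes were called, a smaller share than the 68.4% of all genes tested. The called share was 83.3% of the uptake and export genes, 80% of the sterol-sensing genes and 33.3% of the synthesis genes. With 5 sensing genes, no excess over all genes is read. Of the 6 uptake and export genes, 5 fell (Mylip, Abca1, Soat1, Stard4 and Npc1) and none rose. Of the 18 synthesis enzymes, 5 fell (Tm7sf2, Mvk, Hmgcs1, Msmo1 and Lss), 1 rose (Sc5d) and 12 were not called. The sterol-sensing genes split, with Srebf2 and Insig1 up, Srebf1 and Insig2 down and Scap not called. Across all 14991 genes tested 32.5% rose and 35.9% fell in this comparison. The 5 of 18 synthesis genes that fell are thus no larger a share than the background, while 5 of 6 uptake and export genes is a larger one in a small list. The genes were chosen with results of these data known, so this larger share is described and not tested. The median log2 fold change was -0.65 over the uptake and export genes, -0.02 over the synthesis genes, 0.01 over the sensing genes and -0.07 over all genes tested. In the libraries of low hair follicle level, 5 uptake and export genes fell, 2 synthesis genes fell and 0 rose, and 2 sensing genes rose and 1 fell, where 29.5% of all genes rose and 27.3% fell.

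In PMA_1002 ears compared with PMA_ethanol ears, most uptake and export genes were called. Of the uptake and export genes, 4 were higher in PMA_1002 ears (Mylip, Stard4, Soat1 and Abca1) and 1 was lower (Abcg1). Of the synthesis genes, 4 were higher (Mvk, Fdps, Sqle and Lss) and 0 were lower; 14 were not called. Insig2 was the 1 sensing gene called, and it was higher. Of all genes tested 17% were higher and 18% lower in this comparison, so the synthesis count is near the background share and the uptake and export count above it. As above, the choice of genes with results known means that this larger share is only described. The median log2 fold change was 0.47 over the uptake and export genes, 0.17 over the synthesis genes, 0.07 over the sensing genes and 0.03 over all genes tested. In the libraries of low hair follicle level the counts of higher genes were 3 for uptake and export, 1 for synthesis and 0 for sensing, with 0 lower in each, where 7.73% of all genes were higher and 11.3% lower.

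In PMA_1002 ears compared with Control ears, 12 of the 29 genes were called (41.4%), a smaller share than the 55.0% of all genes tested. Of uptake and export genes, 4 were lower (Mylip, Abca1, Npc1 and Soat1) and 0 higher. Of synthesis genes, 4 were higher (Sc5d, Sqle, Fdps and Hsd17b7) and 1 was lower (Tm7sf2). Srebf2 and Insig1 were higher and Srebf1 was lower. The background shares were 28.4% higher and 26.7% lower, and the median log2 fold changes were -0.33 over uptake and export, 0.10 over synthesis, 0.10 over sensing and -0.03 over all genes tested. In the libraries of low hair follicle level, 2 uptake and export genes were lower, and 3 synthesis genes were higher and 0 lower, where 26.5% of all genes were higher and 21.1% lower. The comparisons share libraries in pairs, so they are not independent of each other.

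**Figure D1:**
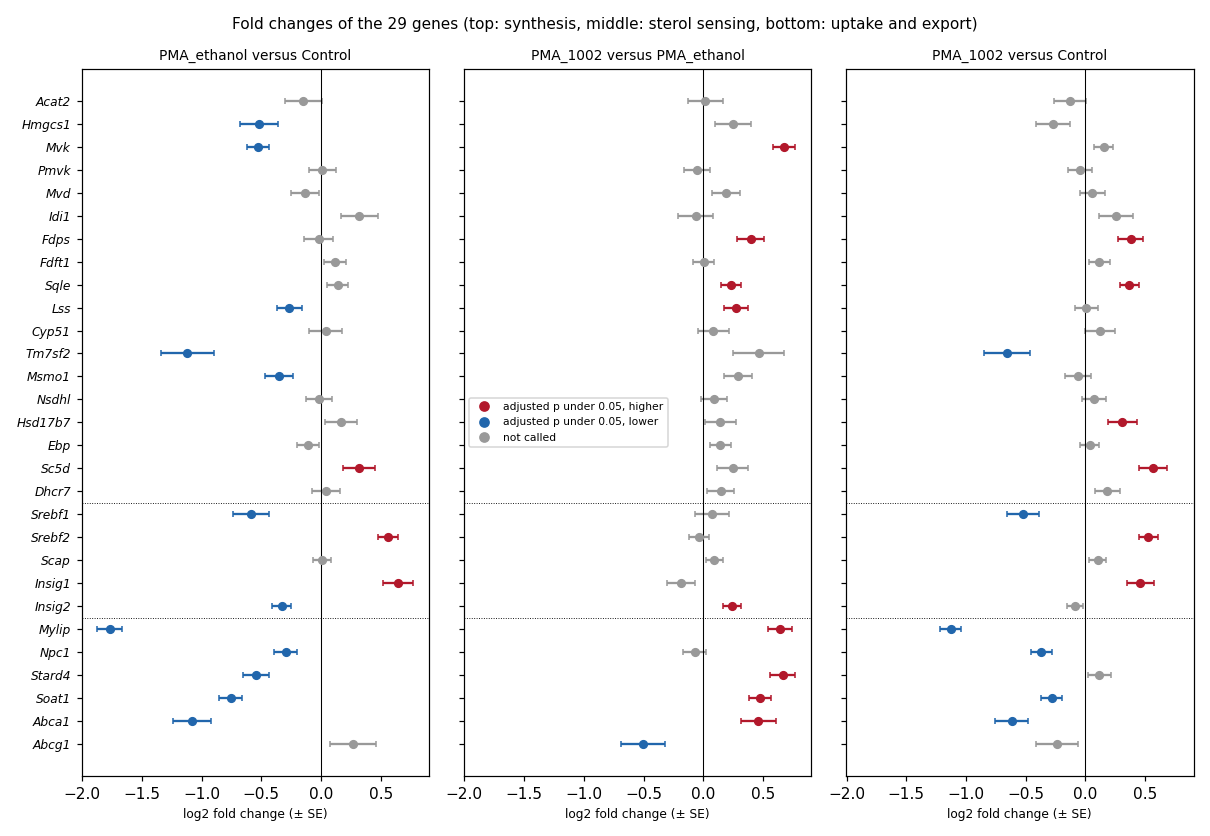
Log2 fold change (x axis, ± SE) of each of the 29 genes (rows) in the 3 comparisons (panels), from the edgeR fit over 15 libraries; red and blue mark genes called higher and lower and grey those not called. The uptake and export genes at the bottom lie left of 0 in PMA_ethanol versus Control except Abcg1 (0.27), and the synthesis genes at the top lie on both sides.

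Mylip encodes a ubiquitin ligase that sends lipoprotein receptors to breakdown and so limits uptake. Its level was 39.2 (lowest), 42.4 (median) and 55.4 CPM (highest) in PMA_1002 libraries, 26.8, 30.7, 24.9 and 29.3 CPM in PMA_ethanol libraries 1 to 4 and 100.4, 101, 84.2, 98.6 and 96.7 CPM in Control libraries 1 to 5. The 3 groups did not overlap: every PMA_ethanol library lay below every PMA_1002 library, and these lay below every Control library. Against Control, Mylip in PMA_ethanol ears was 0.293-fold, a log2 fold change of -1.77 (SE 0.103, adjusted p = 1.71e-10), the lowest value among the 29 genes. It was 1.56-fold in PMA_1002 over PMA_ethanol ears, with a log2 fold change of 0.64 (SE 0.0986, adjusted p = 8.69e-05). PMA_1002 over Control gave -1.13 (SE 0.0875, adjusted p = 1.87e-08).

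Abca1, the transporter that loads cholesterol onto apolipoprotein A-I, was measured at 102 (lowest), 110.5 (median) and 163 CPM (highest) in PMA_1002 libraries, 83.3, 97.8, 70.9 and 108 CPM in PMA_ethanol libraries 1 to 4 and 179.8, 165, 194, 208 and 213 CPM in Control libraries 1 to 5. All Control libraries were above all others, while PMA_1002 and PMA_ethanol libraries overlapped, PMA_ethanol library 4 lying within the PMA_1002 range. The log2 fold change was -1.08 (SE 0.157, adjusted p = 1.22e-05) in PMA_ethanol over Control and -0.62 (SE 0.137, adjusted p = 0.00117) in PMA_1002 over Control. Between PMA_1002 and PMA_ethanol it was 0.46 (SE 0.150, adjusted p = 0.0243). That call was lost without any 1 of PMA_ethanol library 1 (adjusted p = 0.0744), PMA_ethanol library 3 (0.0814), PMA_1002 library 3 (0.0521) or PMA_1002 library 6 (0.0547), and with the replicate number as a block (log2 fold change 0.37, adjusted p = 0.0978), with only the compared groups (0.0553) and in the low hair follicle libraries (0.135). In the low hair follicle libraries the Abca1 call in PMA_1002 over Control was lost as well (log2 fold change -0.44, adjusted p = 0.0836). Abcg1, which exports cholesterol to high-density lipoprotein, was low in every group, at 17.4 (lowest), 24.2 (median) and 30.8 CPM (highest) in PMA_1002 libraries, 46.9, 31.8, 39.8 and 20.3 CPM in PMA_ethanol libraries 1 to 4 and 25.8, 30.7, 31.5, 28.5 and 26.6 CPM in Control libraries 1 to 5. The groups overlapped and PMA_ethanol libraries spread widest, library 1 being the highest of all 15 and library 4 below every Control library. Abcg1 was 0.27 (95% interval -0.14 to 0.68, adjusted p = 0.229) on the log2 scale in PMA_ethanol over Control and -0.51 (SE 0.185, adjusted p = 0.0428) in PMA_1002 over PMA_ethanol. The second value remained called in 6 of 23 alternatives: leaving out any 1 of Control libraries 1, 2, 4 and 5, PMA_ethanol libraries 1 to 3 and PMA_1002 libraries 2, 3, 4 and 6 gave adjusted p from 0.0512 to 0.226, and without PMA_ethanol library 1 the log2 fold change was -0.31. Upper-quartile scaling, no filter, only the compared groups, the replicate block, the hair follicle covariate and the low hair follicle libraries also ended it (from 0.0751 to 0.353). Without PMA_ethanol library 4 Abcg1 was called higher in PMA_ethanol than in Control ears (log2 fold change 0.46, adjusted p = 0.0174).

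Soat1 esterifies cholesterol for storage. Its level was 280.2 (lowest), 300.2 (median) and 338 CPM (highest) in PMA_1002 libraries, 225, 204, 178 and 261 CPM in PMA_ethanol libraries 1 to 4 and 352, 351, 375, 406 and 353 CPM in Control libraries 1 to 5. No groups overlapped, with PMA_ethanol lowest, PMA_1002 between and Control highest. Log2 fold changes were -0.76 (SE 0.0963, adjusted p = 2.33e-06) in PMA_ethanol over Control, 0.47 (SE 0.0926, adjusted p = 0.000771) in PMA_1002 over PMA_ethanol and -0.28 (SE 0.0852, adjusted p = 0.00973) in PMA_1002 over Control. The last call was lost in the low hair follicle libraries (log2 fold change -0.24, adjusted p = 0.119). Stard4, a soluble carrier of sterol between membranes, stood at 71.2 (lowest), 79.5 (median) and 91.5 CPM (highest) in PMA_1002 libraries, 58.4, 45.3, 49.4 and 53.5 CPM in PMA_ethanol libraries 1 to 4 and 88.1, 70.3, 63.9, 84.3 and 71.3 CPM in Control libraries 1 to 5. Every PMA_ethanol library was below every library of both other groups, which overlapped. Stard4 was 0.684-fold in PMA_ethanol over Control (log2 fold change -0.55 (SE 0.108, adjusted p = 0.000248)) and 1.58-fold in PMA_1002 over PMA_ethanol (log2 fold change 0.66 (SE 0.105, adjusted p = 0.000109)). PMA_1002 over Control was 0.12 (95% interval -0.08 to 0.32, adjusted p = 0.311) on the log2 scale.

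Npc1, the lysosomal membrane protein through which cholesterol from lipoproteins leaves the lysosome, had 73.4 (lowest), 79.9 (median) and 96.9 CPM (highest) in PMA_1002 libraries, 97.7, 97.7, 80.1 and 73.4 CPM in PMA_ethanol libraries 1 to 4 and 108, 105, 119, 101 and 106 CPM in Control libraries 1 to 5. Control libraries were all higher than the others, and PMA_1002 and PMA_ethanol libraries covered nearly the same range. Npc1 gave log2 fold changes of -0.30 (SE 0.0996, adjusted p = 0.0138) in PMA_ethanol over Control and -0.37 (SE 0.0890, adjusted p = 0.00214) in PMA_1002 over Control. Between PMA_1002 and PMA_ethanol it was -0.07 (95% interval -0.27 to 0.13, adjusted p = 0.601). Without PMA_ethanol library 4 the first of these was not called (log2 fold change -0.22, adjusted p = 0.0623).

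**Figure D2:**
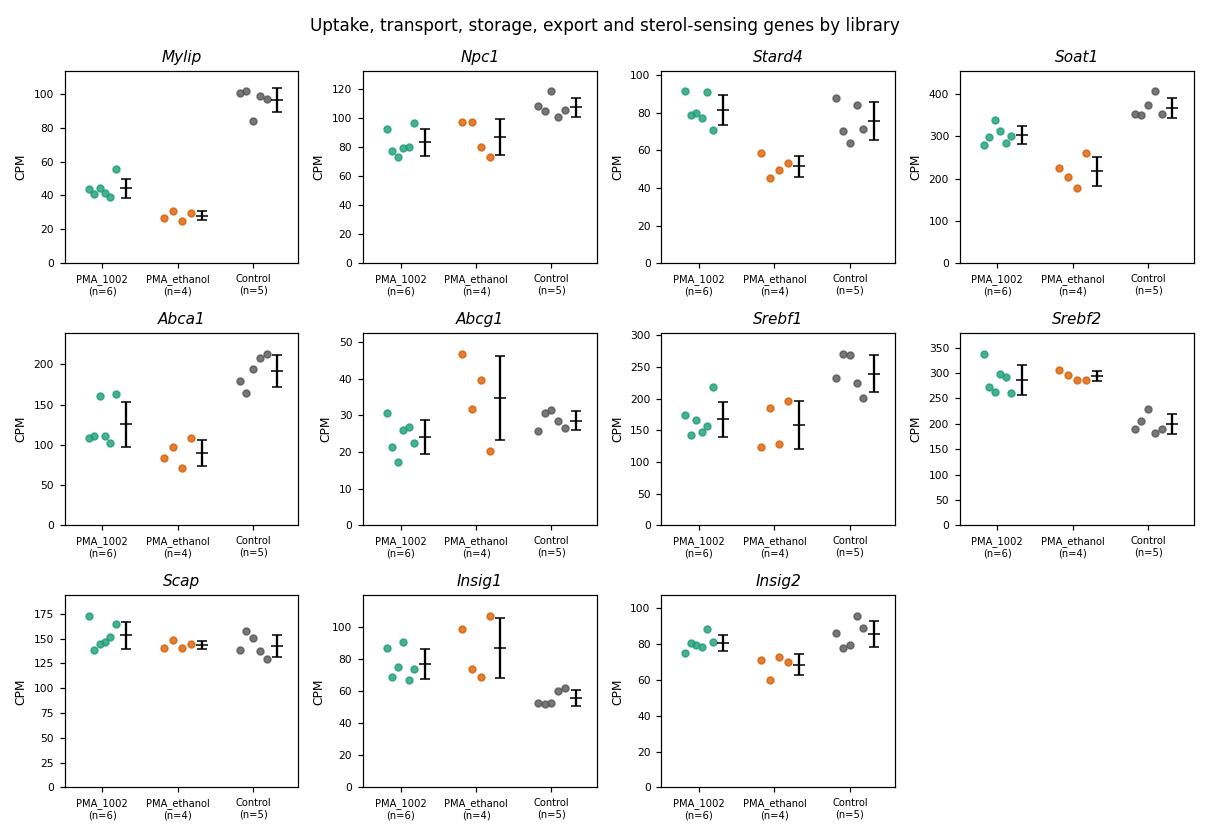
CPM (y axis, from 0) of the 6 uptake and export genes and 5 sterol-sensing genes in each library; points are libraries of PMA_1002 (n = 6), PMA_ethanol (n = 4) and Control (n = 5), and black marks are mean ± SD. PMA_ethanol libraries of Mylip, Stard4 and Soat1 lie below all PMA_1002 and all Control libraries, and Srebf2 and Insig1 are lowest in Control.

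Srebf2 encodes SREBP2, the factor that mainly drives synthesis and uptake genes. It stood at 259.9 (lowest), 282 (median) and 338 CPM (highest) in PMA_1002 libraries, 306, 296, 286 and 287 CPM in PMA_ethanol libraries 1 to 4 and 190.1, 205, 230.0, 181 and 189 CPM in Control libraries 1 to 5. All Control libraries were lower than every library of both PMA groups, which overlapped. The log2 fold change was 0.56 (SE 0.0866, adjusted p = 2e-05) in PMA_ethanol over Control and 0.53 (SE 0.0790, adjusted p = 3.01e-05) in PMA_1002 over Control, and -0.03 (95% interval -0.21 to 0.14, adjusted p = 0.799) in PMA_1002 over PMA_ethanol. Srebf1, whose products mainly drive fatty acid genes, was measured at 142 (lowest), 162 (median) and 217 CPM (highest) in PMA_1002 libraries, 124, 185, 129 and 196 CPM in PMA_ethanol libraries 1 to 4 and 232, 271, 268, 224 and 202 CPM in Control libraries 1 to 5. PMA_ethanol libraries were all below the Control libraries, and the highest PMA_1002 library reached into the Control range. Srebf1 had log2 fold changes of -0.59 (SE 0.151, adjusted p = 0.0023) in PMA_ethanol over Control and -0.52 (SE 0.134, adjusted p = 0.00362) in PMA_1002 over Control, and PMA_1002 over PMA_ethanol was 0.07 (95% interval -0.23 to 0.38, adjusted p = 0.748). Srebf2 overlaps Gm49502 and Mir33, and Srebf1 overlaps Mir6921 and Mir6922, on the same strand. What these overlaps do to the counts was not tested.

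Insig1, a sterol sensor that is itself a target of SREBP2, had 66.9 (lowest), 74.3 (median) and 90.2 CPM (highest) in PMA_1002 libraries, 98.5, 73.9, 68.4 and 107 CPM in PMA_ethanol libraries 1 to 4 and 52.4, 51.7, 52.8, 60.0 and 62.1 CPM in Control libraries 1 to 5. The Control libraries were the lowest 5, and the PMA groups overlapped. In PMA_ethanol over Control its log2 fold change was 0.65 (SE 0.125, adjusted p = 0.000206), in PMA_1002 over Control 0.46 (SE 0.114, adjusted p = 0.00266) and in PMA_1002 over PMA_ethanol -0.19 (95% interval -0.44 to 0.07, adjusted p = 0.244). Insig2, the second INSIG gene, was measured at 74.8 (lowest), 79.8 (median) and 88.3 CPM (highest) in PMA_1002 libraries, 70.8, 59.8, 72.6 and 69.9 CPM in PMA_ethanol libraries 1 to 4 and 86.2, 77.3, 79.4, 95.6 and 88.7 CPM in Control libraries 1 to 5. PMA_ethanol libraries were below all libraries of both other groups. Log2 fold changes of Insig2 were -0.33 (SE 0.0792, adjusted p = 0.00138) in PMA_ethanol over Control, 0.24 (SE 0.0762, adjusted p = 0.0208) in PMA_1002 over PMA_ethanol and -0.09 (95% interval -0.24 to 0.06, adjusted p = 0.304) in PMA_1002 over Control. The first call was lost in the low hair follicle libraries (log2 fold change -0.24, adjusted p = 0.0945). The PMA_1002 over PMA_ethanol call of Insig2 was lost without PMA_ethanol library 2 (log2 fold change 0.18, adjusted p = 0.0952) and with RLE scaling (adjusted p = 0.0529), no filter on low counts (0.0518), the replicate block (0.0734), the hair follicle covariate (0.0637) and the low hair follicle libraries (0.219). Scap stood at 139 (lowest), 149 (median) and 173 CPM (highest) in PMA_1002 libraries, 141, 148, 141 and 145 CPM in PMA_ethanol libraries 1 to 4 and 139, 157, 150.4, 137 and 129.5 CPM in Control libraries 1 to 5, with all groups overlapping. Its log2 fold change was 0.01 (95% interval -0.15 to 0.17, adjusted p = 0.919) in PMA_ethanol over Control, 0.09 (95% interval -0.06 to 0.25, adjusted p = 0.352) in PMA_1002 over PMA_ethanol and 0.10 (95% interval -0.04 to 0.25, adjusted p = 0.219) in PMA_1002 over Control. With upper-quartile scaling, which moved the median of all genes in PMA_ethanol over Control by -0.24 on the log2 scale, Scap was called lower there (-0.23, adjusted p = 0.0183).

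Mvk, the kinase that phosphorylates mevalonate, was the synthesis gene with the smallest adjusted p in both PMA_ethanol over Control and PMA_1002 over PMA_ethanol. Mvk was measured at 53.5 (lowest), 58.9 (median) and 70.5 CPM (highest) in PMA_1002 libraries, 34.2, 40.1, 34.8 and 38.9 CPM in PMA_ethanol libraries 1 to 4 and 53.9, 56.8, 51.7, 58.1 and 47.2 CPM in Control libraries 1 to 5. PMA_ethanol libraries were the lowest 4 of the 15, and PMA_1002 and Control libraries overlapped. Its log2 fold change was -0.53 (SE 0.0929, adjusted p = 8.35e-05) in PMA_ethanol over Control, 0.68 (SE 0.0899, adjusted p = 2.02e-05) in PMA_1002 over PMA_ethanol and 0.15 (95% interval -0.02 to 0.32, adjusted p = 0.125) in PMA_1002 over Control. Hmgcs1, which makes hydroxymethylglutaryl-CoA at the entry to the pathway, had the highest level per length of all 29 genes in each group. Its level was 596 (lowest), 729 (median) and 892 CPM (highest) in PMA_1002 libraries, 596, 776, 509.8 and 642 CPM in PMA_ethanol libraries 1 to 4 and 790.5, 655, 1104, 895 and 1075 CPM in Control libraries 1 to 5. The groups overlapped, with Control libraries 3 and 5 highest and PMA_ethanol library 3 lowest. Hmgcs1 had a log2 fold change of -0.52 (SE 0.160, adjusted p = 0.00878) in PMA_ethanol over Control, 0.25 (95% interval -0.08 to 0.57, adjusted p = 0.229) in PMA_1002 over PMA_ethanol and -0.27 (95% interval -0.57 to 0.03, adjusted p = 0.123) in PMA_1002 over Control. In the low hair follicle libraries the first value was -0.40 (adjusted p = 0.0747). With the hair follicle covariate the second was called (0.40, adjusted p = 0.017). The last was called without Control library 2 (-0.37, adjusted p = 0.0333) and with upper-quartile scaling (-0.43, adjusted p = 0.0181). Hmgcs1 shares 462 bases with Gm48342 on the opposite strand, and whether counting used strand is unknown here.

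Tm7sf2 encodes a sterol reductase that acts after Cyp51 on the way from lanosterol. It was measured at 10.3 (lowest), 12.5 (median) and 20.3 CPM (highest) in PMA_1002 libraries, 7.02, 11.7, 7.05 and 13.0 CPM in PMA_ethanol libraries 1 to 4 and 21.3, 25.7, 21.5, 20.04 and 19.8 CPM in Control libraries 1 to 5. All PMA_ethanol libraries were below all Control libraries, PMA_ethanol libraries 1 and 3 were the lowest of all, and PMA_1002 libraries reached into both other ranges. Tm7sf2 was 0.460-fold in PMA_ethanol over Control, a log2 fold change of -1.12 (SE 0.220, adjusted p = 0.000238), and PMA_1002 over Control gave -0.66 (SE 0.190, adjusted p = 0.00765). The latter call was lost in the low hair follicle libraries (log2 fold change -0.59, adjusted p = 0.0583). PMA_1002 over PMA_ethanol was 0.46 (95% interval 0.02 to 0.91, adjusted p = 0.101), and it was called without PMA_ethanol library 4 (log2 fold change 0.61, adjusted p = 0.0472). Tm7sf2 overlaps Vps51 on the same strand, so its reads are uncertain. Sc5d, the desaturase near the end of the pathway, rose in PMA_ethanol relative to Control ears, unlike the 5 other synthesis genes called there. Its level was 33.2 (lowest), 52.9 (median) and 56.7 CPM (highest) in PMA_1002 libraries, 48.1, 37.3, 44.0 and 39.0 CPM in PMA_ethanol libraries 1 to 4 and 37.5, 30.5, 32.1, 33.4 and 34.9 CPM in Control libraries 1 to 5. PMA_1002 library 6 was low within its group. The other 5 PMA_1002 libraries were above all Control libraries and, except the lowest of them, above all PMA_ethanol libraries. Log2 fold changes of Sc5d were 0.32 (SE 0.131, adjusted p = 0.0397) in PMA_ethanol over Control, 0.25 (95% interval -0.02 to 0.51, adjusted p = 0.143) in PMA_1002 over PMA_ethanol and 0.56 (SE 0.119, adjusted p = 0.000709) in PMA_1002 over Control. The first call was lost without any 1 of Control libraries 2 to 5 or PMA_ethanol libraries 1 and 3 (adjusted p from 0.0507 to 0.141), with upper-quartile scaling (0.08 on the log2 scale, adjusted p = 0.576) and in the low hair follicle libraries (0.202), and PMA_1002 over PMA_ethanol was called without PMA_1002 library 6 (0.33, adjusted p = 0.0122).

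Fdps makes farnesyl diphosphate, the branch point to sterols and to prenyl groups. It was measured at 16.2 (lowest), 18.3 (median) and 19.8 CPM (highest) in PMA_1002 libraries, 13.4, 13.6, 12.9 and 15.2 CPM in PMA_ethanol libraries 1 to 4 and 14.7, 15.5, 13.9, 15.6 and 10.3 CPM in Control libraries 1 to 5. PMA_1002 libraries lay above all others, and PMA_ethanol and Control libraries overlapped. Log2 fold changes of Fdps were 0.40 (SE 0.114, adjusted p = 0.0118) in PMA_1002 over PMA_ethanol, 0.38 (SE 0.106, adjusted p = 0.00596) in PMA_1002 over Control and -0.02 (95% interval -0.27 to 0.23, adjusted p = 0.893) in PMA_ethanol over Control. Both Fdps calls were lost in the low hair follicle libraries (adjusted p = 0.131 over PMA_ethanol and 0.0739 over Control). Upper-quartile scaling also ended the call over Control (0.0874). Sqle, the epoxidase that commits squalene to sterols, stood at 234 (lowest), 244 (median) and 291 CPM (highest) in PMA_1002 libraries, 241, 207, 196 and 228 CPM in PMA_ethanol libraries 1 to 4 and 206, 181, 193, 206 and 205 CPM in Control libraries 1 to 5. PMA_1002 libraries were above all Control libraries, while PMA_ethanol library 1 reached into the PMA_1002 range. Sqle gave 0.23 (SE 0.0831, adjusted p = 0.0404) in PMA_1002 over PMA_ethanol, 0.37 (SE 0.0779, adjusted p = 0.000735) in PMA_1002 over Control and 0.14 (95% interval -0.04 to 0.32, adjusted p = 0.16) in PMA_ethanol over Control. The call of Sqle between the PMA groups was lost without any 1 of PMA_ethanol libraries 2 and 3 or PMA_1002 libraries 1, 3 and 4 (adjusted p from 0.0556 to 0.133), and with RLE scaling, DESeq2, no filter, only the compared groups or the low hair follicle libraries (from 0.0754 to 0.277).

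**Figure D3:**
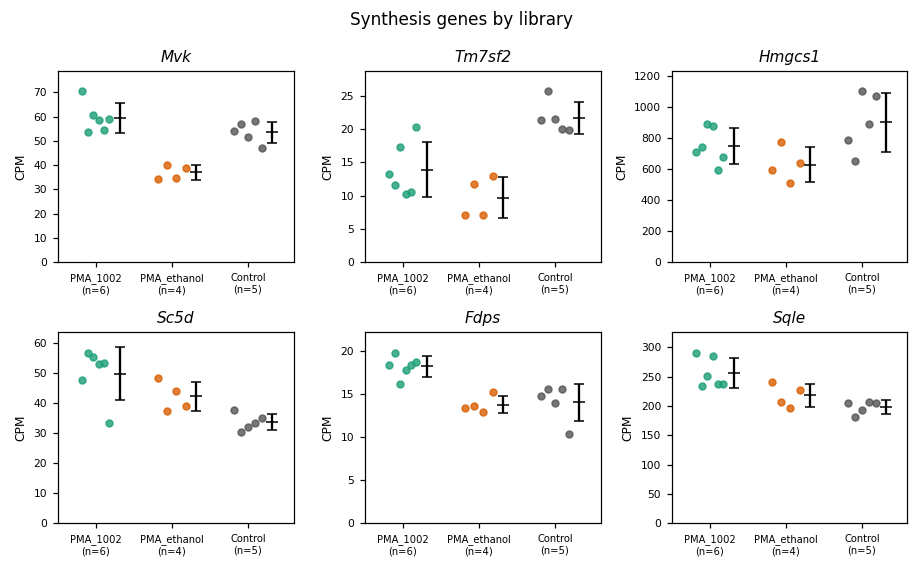
CPM (y axis, from 0) of 6 synthesis genes in each library; points are libraries of PMA_1002 (n = 6), PMA_ethanol (n = 4) and Control (n = 5), and black marks are mean ± SD. Mvk is lowest in PMA_ethanol, Fdps highest in PMA_1002 and Tm7sf2 highest in most Control libraries.

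Among the other synthesis genes, Lss, the cyclase that forms lanosterol, had log2 fold changes of -0.27 (SE 0.105, adjusted p = 0.0317) in PMA_ethanol over Control and 0.28 (SE 0.101, adjusted p = 0.0435) in PMA_1002 over PMA_ethanol. The Lss call in PMA_ethanol over Control was lost without any 1 of Control libraries 2 and 4, PMA_ethanol libraries 1 to 3 and PMA_1002 library 1 (adjusted p from 0.0505 to 0.126), and with RLE scaling, DESeq2, no filter or the low hair follicle libraries (from 0.0604 to 0.244). Between the PMA groups it was lost without any 1 of Control library 5, PMA_ethanol libraries 1 to 3 and PMA_1002 libraries 1, 3, 4 and 6 (from 0.0527 to 0.152), and with RLE scaling, DESeq2, only the compared groups, the replicate block or the low hair follicle libraries (from 0.0697 to 0.349). Msmo1, which acts after Cyp51 in removing methyl groups from the sterol ring, fell in PMA_ethanol relative to Control ears, with a log2 fold change of -0.35 (SE 0.120, adjusted p = 0.015). That call was lost without PMA_ethanol library 3 (adjusted p = 0.0655) and in the low hair follicle libraries (0.188). Without PMA_ethanol library 4 or PMA_1002 library 5, Msmo1 was called higher in PMA_1002 than in PMA_ethanol ears (0.39 and 0.34 on the log2 scale, adjusted p = 0.0168 and 0.0281). Hsd17b7, a sterol keto-reductase, was higher in PMA_1002 than in Control ears, with a log2 fold change of 0.31 (SE 0.122, adjusted p = 0.04), and the call was lost without any 1 of Control libraries 1 to 3 or PMA_1002 libraries 3, 4 and 6 (adjusted p from 0.0518 to 0.103), with upper-quartile scaling (0.296) and with the replicate block (0.0733). The thiolase Acat2, the mevalonate-pathway enzymes Pmvk, Mvd and Idi1, the squalene synthase Fdft1 and the later enzymes Cyp51, Nsdhl, Ebp and Dhcr7 were called in none of the 3 comparisons. Without PMA_ethanol library 4, Acat2 was called lower in PMA_ethanol than in Control ears (-0.33, adjusted p = 0.0374), and Idi1 was called higher there without Control library 4 (0.40, adjusted p = 0.0317) or PMA_ethanol library 2 (0.46, adjusted p = 0.0111). Over the uncalled synthesis genes, 95% intervals of the log2 fold change ran from -0.47 to 0.64 for the 12 in PMA_ethanol over Control, from -0.37 to 0.91 for the 14 in PMA_1002 over PMA_ethanol and from -0.57 to 0.55 for the 13 in PMA_1002 over Control. Counts of Acat2, Fdft1 and Idi1 are uncertain because other annotated genes hold near-identical stretches, such as 1477 bases of Acat3 at 97.7% identity with Acat2 and 684 identical bases of Gm13502 with Idi1.

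Per kilobase of exon, levels could be compared roughly between genes. The length was that of all annotated exons of a gene together, such as 4.21 kb for Fdps and 4.40 kb for Tm7sf2. It can exceed the length of the transcript that is made, which lowers the level per kb. Hmgcs1 was highest, at 163 ± 25.4, 137 ± 24.2 and 197 ± 41.4 CPM per kb in PMA_1002, PMA_ethanol and Control ears (SD, n = 6, 4 and 5). Msmo1 and Cyp51 followed in every group, with 80.2 ± 10.8 and 84.2 ± 17.4 CPM per kb in PMA_1002 ears, 65.5 ± 11.3 and 79.3 ± 11.2 in PMA_ethanol ears and 83.8 ± 6.97 and 77.3 ± 5.15 in Control ears, and their mean ± SD overlapped in each group. Soat1 was the highest uptake and export gene, at 30.9 ± 2.16, 22.2 ± 3.57 and 37.5 ± 2.44 CPM per kb in PMA_1002, PMA_ethanol and Control ears. Fdps, Abcg1 and Tm7sf2 were the lowest 3 genes in each group, all under 5 CPM per kb. On the same strand, Fdps overlaps Gm22935 and Gm43738, Abcg1 overlaps Gm25447 and Tm7sf2 overlaps Vps51. Copies outside the annotated transcripts were not searched, so the places of these 3 genes in this order are uncertain. The median coefficient of variation between libraries was 14.3% over synthesis genes and 12.2% over uptake and export genes in PMA_1002 ears, 14.7% and 15.2% in PMA_ethanol ears and 8.02% and 7.95% in Control ears, where it was narrowest.

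The balance of the classes was described as the mean log2 CPM of the 18 synthesis genes minus that of the 6 uptake and export genes in each library. It was 0.25 to 0.57 in PMA_1002 libraries, 0.38 to 0.67 in PMA_ethanol libraries and -0.13 to -0.09 in Control libraries. The difference was larger in every library of the PMA groups than in any Control library, and the PMA groups overlapped. CPM are not divided by gene length here, so the sign of the difference is not read, and the lengths enter every library alike. The mean level of the synthesis genes was 6.72 ± 0.126 in PMA_1002, 6.51 ± 0.149 in PMA_ethanol and 6.64 ± 0.0316 in Control libraries, and that of the uptake and export genes was 6.33 ± 0.0753, 6.04 ± 0.102 and 6.75 ± 0.0385 in the same groups (log2 CPM, SD, n = 6, 4 and 5). The shift lay mainly in the uptake and export genes, whose group ranges did not overlap, while those of the synthesis genes did. That class joins unlike roles, so its score measures neither uptake nor export. In PMA_ethanol over Control, Mylip, which limits uptake, and Abca1 fell furthest (log2 fold changes -1.77 and -1.08). Soat1, Stard4 and Npc1 fell less, and Abcg1 did not fall (0.27). No test is given for these class scores, because the genes were chosen with results of these data known.

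**Figure D4:**
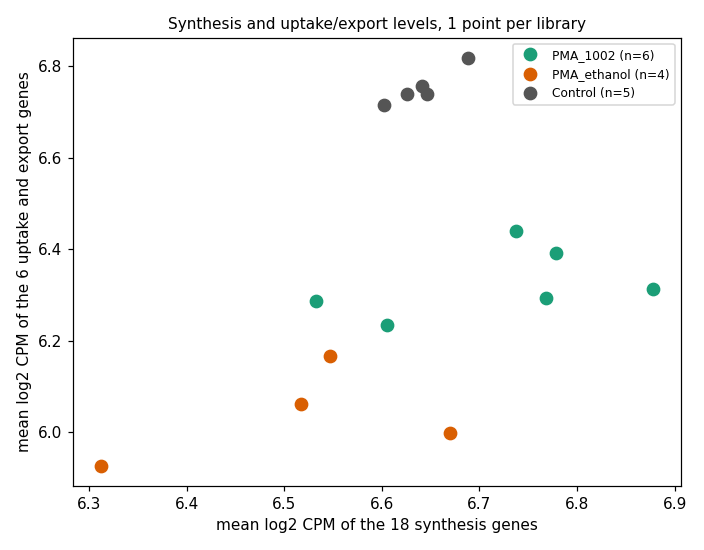
Mean log2 CPM of the 18 synthesis genes (x axis) against that of the 6 uptake and export genes (y axis), 1 point per library, for PMA_1002 (n = 6), PMA_ethanol (n = 4) and Control (n = 5). Control libraries lie highest on the y axis, PMA_ethanol libraries lowest and PMA_1002 libraries between, while on the x axis the groups overlap.

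Related genes outside the 29 were taken from lists of sterol handling, SREBP-driven fatty acid synthesis and prenyl transfer. Of 23 other sterol-handling genes tested, 5 rose and 7 fell in PMA_ethanol over Control, 3 were higher and 6 lower in PMA_1002 over PMA_ethanol, and 4 were higher and 6 lower in PMA_1002 over Control. Beside the shares over all genes given above (32.5% and 35.9%, 17% and 18%, and 28.4% and 26.7%), only the 6 lower in PMA_1002 over PMA_ethanol were a larger share. Ch25h, which makes the oxysterol 25-hydroxycholesterol, was measured at 19.4 (lowest), 31.4 (median) and 41.6 CPM (highest) in PMA_1002 libraries, 69.8, 52.9, 87.5 and 99.3 CPM in PMA_ethanol libraries 1 to 4 and 0.520, 0.517, 0.481, 0.925 and 0.656 CPM in Control libraries 1 to 5. The 3 groups were far apart, with PMA_ethanol highest and Control near the limit of detection at 3 to 6 reads per library. The log2 fold change of Ch25h was 6.96 (SE 0.304, adjusted p = 1.16e-11) in PMA_ethanol over Control, where it depends on those few reads, -1.30 (SE 0.191, adjusted p = 7.02e-05) in PMA_1002 over PMA_ethanol and 5.66 (SE 0.299, adjusted p = 4.13e-10) in PMA_1002 over Control. Stard5, a sterol carrier related to Stard4, was -0.60 (SE 0.0603, adjusted p = 1.3e-07) in PMA_ethanol over Control and 0.21 (SE 0.0579, adjusted p = 0.00871) in PMA_1002 over PMA_ethanol on the log2 scale. Abca2, a transporter of endolysosomal membranes, was -0.97 (SE 0.1005, adjusted p = 2.05e-07) in PMA_ethanol over Control and 0.48 (SE 0.0967, adjusted p = 0.000996) in PMA_1002 over PMA_ethanol. Gramd1a, which carries sterol from the plasma membrane to the endoplasmic reticulum, was 1.11 (SE 0.0844, adjusted p = 4.63e-09) in PMA_ethanol over Control and -0.63 (SE 0.0799, adjusted p = 1.29e-05) in PMA_1002 over PMA_ethanol. For Ch25h, Stard5, Abca2 and Gramd1a the PMA_1002 libraries lay between those of both other groups, with no overlap. Of all 14991 genes tested, 8663 had no overlap between PMA_ethanol and Control libraries, 3611 between the PMA groups and 5507 between PMA_1002 and Control. These genes were named for their small adjusted p, so the lack of overlap is not read as particular to them.

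Of 10 fatty acid genes driven by SREBP1, 0 rose and 7 fell in PMA_ethanol over Control, 2 were higher and 0 lower in PMA_1002 over PMA_ethanol, and 0 were higher and 5 lower in PMA_1002 over Control, against 35.9%, 18% and 26.7% of all genes lower in these comparisons. Fads1, a fatty acid desaturase, had a log2 fold change of -0.90 (SE 0.125, adjusted p = 6.98e-06) in PMA_ethanol over Control and 0.13 (95% interval -0.12 to 0.39, adjusted p = 0.421) in PMA_1002 over PMA_ethanol. Acly, which supplies cytosolic acetyl-CoA to both fatty acid and sterol synthesis, was -0.32 (SE 0.0805, adjusted p = 0.00221) in PMA_ethanol over Control and 0.27 (SE 0.0776, adjusted p = 0.0111) in PMA_1002 over PMA_ethanol. Of 10 genes of prenyl and related isoprenoid branches, 2 rose and 2 fell in PMA_ethanol over Control, 1 was higher and 1 lower in PMA_1002 over PMA_ethanol, and 2 were higher and 1 lower in PMA_1002 over Control, none of them a larger share than over all genes. Rabggtb, a subunit of the enzyme that prenylates Rab proteins, was 0.94 (SE 0.0769, adjusted p = 1.13e-08) in PMA_ethanol over Control and -0.25 (SE 0.0730, adjusted p = 0.0122) in PMA_1002 over PMA_ethanol. Fnta, the subunit shared by both other protein prenyltransferases, was -0.30 (SE 0.0675, adjusted p = 0.000843) in PMA_ethanol over Control and 0.21 (SE 0.0650, adjusted p = 0.0205) in PMA_1002 over PMA_ethanol. The median log2 fold change in PMA_ethanol over Control was 0.04 over the sterol-handling list, -0.40 over the fatty acid list and -0.14 over the isoprenoid list, against -0.07 over all genes tested.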

How the data were processed

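Messenger RNA of mouse ear tissue was sequenced in 15 libraries. Per the labels' protocols, polyA RNA was purified and libraries were made with a stranded kit. The authors deposited raw read counts per gene, 1 table per library, made with STAR 2.5, HTSeq, FastQC 0.11.5 and MultiQC 0.8 on build GRCm38, per the submitters' processing notes. Not given in the sources used here are the annotation release and the strand setting of the counting. The deposited counts include reads given to no gene (28.5% to 32.8% of each table), which were left out. Symbols and positions came from GENCODE M21. Groups came from sample titles.

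Counts were tested in R 4.3.3 with edgeR 4.0.16 (TMM scaling, filterByExpr by group, robust quasi-likelihood fit over all 15 libraries, group as the only term). SE were derived from the F statistic, and logarithms of CPM had 2 as prior count. Alternatives used other scalings, no filter, DESeq2 1.42.0, the compared groups alone, a replicate block, a hair follicle covariate and each library left out. Libraries of 1 group differed beyond sampling noise (chi-square per degree of freedom 2.93 to 27.0 over 31 pairs). On simulated data for PMA_ethanol versus Control (14561 genes), 67, 67 and 66 genes were changed 1.5, 2 and 4 times and the others were not. Of the changed genes, 43.3%, 74.6% and 95.5% were called. In the data 68.4% of genes were called in this comparison, so these shares do not give the detection rates of the tests above. Near-identical stretches were searched in the annotated transcripts (at least 300 bases at 95% identity).

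The members and lists were chosen with earlier results of these data known. Library values are given for all uptake and export and sterol-sensing genes, and for synthesis genes that had 1 of the 3 smallest adjusted p-values in PMA_ethanol over Control or PMA_1002 over PMA_ethanol or that went against most called synthesis genes. Of each other list, the called gene of smallest adjusted p in each direction in those comparisons is named. One listed gene, Sts, was not matched to a row.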

Additional observations from a re-analysis of the deposited data

Results flagged for a closer look

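In 87 sets of values (29 genes in 3 groups), the highest or lowest library was compared with the nearest other library of its group, relative to the group's range, by Dixon's test. 5 stood apart at the 95% critical value, and chance flags about 1 in 20. Mylip had 55.4 CPM in PMA_1002 library 6, with 44.5 CPM in the next highest of that group, and 84.2 CPM in Control library 3, with 96.7 CPM in the next lowest. The groups of Mylip did not overlap with these libraries included. Sc5d had 33.2 CPM in PMA_1002 library 6, with 47.5 CPM in the next lowest. Mvd had 42.3 CPM in PMA_ethanol library 3, the library of lowest depth, with 56.9 CPM in the next lowest. Fdps had 10.3 CPM in Control library 5, with 13.9 CPM in the next lowest.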

How the results depend on the processing

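Each of the 87 gene results was recomputed under 23 alternatives, of which 22 were planned and 1 (leaving out the 6 libraries of high hair follicle level) was added after the data were seen. Of 2001 values, 1889 kept their direction and side of the threshold or were called in neither fit, 90 lost the call, 21 gained it and 1 reversed (Scap in PMA_ethanol over Control, -0.23 with upper-quartile scaling). No value called with the settings of the report changed sign. With upper-quartile scaling, 33.6%, 61.8% and 34.6% of called genes were higher in PMA_ethanol over Control, PMA_1002 over PMA_ethanol and PMA_1002 over Control, against 47.5%, 48.7% and 51.5% with TMM.

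In PMA_ethanol over Control, the 1 higher synthesis gene became 2 with RLE scaling and 0 with upper-quartile scaling or without high hair follicle libraries, and 0 to 2 with 1 library left out. The 5 lower became 8 with upper-quartile scaling and 2 without those libraries, and 3 to 6 with 1 library left out (3 without PMA_ethanol library 3). Higher uptake and export genes numbered 0 to 1 with 1 library left out. In PMA_1002 over PMA_ethanol, the 4 higher synthesis genes became 2 with RLE scaling, with DESeq2 and with only the compared groups, 1 without high hair follicle libraries and 2 to 6 with 1 library left out. The 1 lower uptake and export gene became 0 with upper-quartile scaling, no filter, only the compared groups, the hair follicle covariate or without high hair follicle libraries, and 0 to 1 with 1 library left out. The 1 higher sensing gene, Insig2, became 0 with RLE scaling, no filter, the hair follicle covariate or without high hair follicle libraries, and without PMA_ethanol library 2. In PMA_1002 over Control, the 4 higher synthesis genes became 2 with upper-quartile scaling, the 1 lower became 2 with that scaling, 0 without high hair follicle libraries and 1 to 2 with 1 library left out, and the 4 lower uptake and export genes became 2 without high hair follicle libraries. The cause was not tested.

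No pairing by replicate number was seen: 2 of 13 same-number pairs had a correlation of deviations over 0.1 (range -0.53 to 0.58), and 1 of 15 libraries correlated best with its own number. These correlations also carry the spread in hair follicle level within groups, so they cannot exclude a pairing. With the replicate block the 1 lower uptake and export gene in PMA_1002 over PMA_ethanol became 0 and the higher synthesis genes again numbered 4, without Lss (adjusted p = 0.0707) and with Sc5d (adjusted p = 0.0346), while Hsd17b7 in PMA_1002 over Control lost its call (adjusted p = 0.0733). The lowest depth, 2656680 reads in genes, limits PMA_ethanol library 3 most.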

Other observations

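Other oxysterol and lipoprotein genes of the sterol-handling list, chosen after their values were seen, differed in both directions. Levels are group means over 6, 4 and 5 libraries, and p-values are from edgeR, adjusted over all genes tested. Cyp27a1, which makes 27-hydroxycholesterol, averaged 8.18 CPM in PMA_1002, 6.36 CPM in PMA_ethanol and 20.3 CPM in Control libraries, with a log2 fold change of -1.65 (SE 0.188, adjusted p = 6.27e-07) in PMA_ethanol over Control and 0.36 (95% interval -0.03 to 0.74, adjusted p = 0.141) in PMA_1002 over PMA_ethanol. Cyp7b1, which breaks down 25- and 27-hydroxycholesterol, averaged 21.4 CPM in PMA_1002, 32.6 CPM in PMA_ethanol and 6.34 CPM in Control libraries, with 2.33 (SE 0.229, adjusted p = 1.4e-07) in PMA_ethanol over Control and -0.57 (SE 0.203, adjusted p = 0.0392) in PMA_1002 over PMA_ethanol. Sult2b1, the cholesterol sulfotransferase of epidermis, averaged 79.2 CPM in PMA_1002, 119 CPM in PMA_ethanol and 39.7 CPM in Control libraries, with 1.58 (SE 0.184, adjusted p = 1.47e-06) and -0.58 (SE 0.171, adjusted p = 0.0153) in the same comparisons. So Ch25h, Cyp7b1 and Sult2b1 rose in PMA_ethanol over Control, and each was lower in PMA_1002 than in PMA_ethanol ears.

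The liver X receptor gene Nr1h3 averaged 4.68 CPM in PMA_1002, 3.11 CPM in PMA_ethanol and 5.91 CPM in Control libraries, with a log2 fold change of -0.92 (SE 0.239, adjusted p = 0.00244) in PMA_ethanol over Control and 0.57 (95% interval 0.08 to 1.06, adjusted p = 0.065) in PMA_1002 over PMA_ethanol. Its relative Nr1h2 averaged 94.3 CPM in PMA_1002, 87.6 CPM in PMA_ethanol and 92.6 CPM in Control libraries and was -0.07 (95% interval -0.28 to 0.13, adjusted p = 0.526) in PMA_ethanol over Control. The lipoprotein receptor genes Vldlr and Scarb1 fell in PMA_ethanol over Control, with -1.10 (SE 0.192, adjusted p = 9.33e-05) and -0.62 (SE 0.127, adjusted p = 0.000369). In PMA_1002 over PMA_ethanol they were 0.32 (95% interval -0.07 to 0.71, adjusted p = 0.192) and 0.09 (95% interval -0.17 to 0.35, adjusted p = 0.615). The lipoprotein receptor gene Lrp1 had a higher level, averaging 733 CPM in PMA_ethanol and 691 CPM in Control libraries, and did not fall. Its log2 fold change was 0.09 (95% interval -0.16 to 0.34, adjusted p = 0.535) in PMA_ethanol over Control.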
